A study of Mus musculus with 6 samples.

Results

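Cd69, Tnfrsf9, Nfkbia, Myc and the dual-specificity phosphatase (DUSP) genes Dusp16 and Dusp8 are read here as a group of genes tied to T-cell activation and to the feedback that limits it. They were chosen by symbol from the deposited table: Cd69, Tnfrsf9, Nfkbia, Myc and every symbol made of Dusp and a number, which gave 6 of the table's 854 genes. The table comes from OT-I cells, mouse CD8 T cells with a transgenic T-cell receptor (TCR) specific for an ovalbumin peptide, taken as naive cells from spleen and lymph nodes and kept for 3 days with IL-2 at 1 µg/ml. The cells were Themis conditional knockout (cKO) in 3 libraries and wild type (WT) in 3 libraries, and cells of both genotypes carried the OT-I receptor. The labels give neither the Cre line that deletes Themis nor the age of the mice, and do not state whether replicates are separate animals, cultures or technical repeats; p-values therefore speak only of the spread among these 6 libraries, which may be technical.

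T cells that receive a TCR signal activate NF-κB and the MAP kinases, and a set of early genes follows. Cd69 and Tnfrsf9 encode surface molecules used as activation markers, and Myc encodes the transcription factor that drives growth of activated T cells; IL-2 signalling also sustains Myc. Nfkbia encodes IκBα, which holds NF-κB in the cytoplasm and is itself an NF-κB target, so it closes a negative feedback loop. The DUSP proteins of the MAP kinase phosphatase type remove phosphates from MAP kinases and limit those pathways.

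Themis, the deleted gene, had 970, 1247 and 1204 reads in cKO libraries, against 5212, 5882 and 5171 reads in WT libraries, so the labels fit the counts and 21.0% of the WT mean remained in cKO. Read counts over the table summed to between 424599 and 437428 in cKO libraries and to between 946768 and 1054432 in WT libraries; these sums cover the table's genes alone, and the sequencing depth is unknown. On the log2 scale the ratio of mean counts lies outside the interval from -0.94 to 1.06 for all table genes, so with the genotypes at equal depth every gene in it, each member included, differs by about a factor of 2 or more, and a difference in a member is a property of the table as well as of the gene. All CD8 T cell markers listed, 7 in number, lie outside the table, so the labelled cell type was not checked here. Of the genes listed for other cells, 3 of 7 B cell markers were in the table, with summed scaled counts of 118 to 308 in cKO libraries and 60.0 to 102 in WT libraries, and 4 of 8 NK cell markers, with 754 to 1296 in cKO libraries and 290.1 to 448 in WT libraries. The 2 of 9 myeloid and dendritic markers in the table, Itgax and Mpeg1, summed to 165 to 271 in cKO libraries and 386 to 493 in WT libraries, but they moved in opposite directions. Itgax had 155 ± 64.2 scaled counts in cKO and 64.1 ± 14.7 in WT, a log2 fold change of 1.28 (edgeR, adjusted p = 0.00237; 0.0508 with the adjustment over 16996 genes). Mpeg1 had 51.0 ± 10.04 in cKO and 385 ± 42.0 in WT, a log2 fold change of -2.91 (edgeR, adjusted p = 2.57e-07). None of these 9 genes was at 0 in any library, and their part in the results below was not tested.

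With the genotypes taken at equal depth, all 6 genes were lower in every cKO library than in any WT library, though Myc and Nfkbia turned sign under scalings centred on the table. Among them Dusp8 was nearly absent from cKO, Cd69 was at 26.0% of its WT mean, and Myc and Nfkbia were closest to the smallest difference the table holds. All 6 passed an adjusted p of 0.05 as lower in cKO (edgeR quasi-likelihood test with Benjamini-Hochberg adjustment over 794 tested genes). In the same test 75.8% of tested genes were lower in cKO and 100% passed in either direction, in 75.7% every cKO library was below every WT library, and in 99.5% the genotypes did not overlap in either direction, so the direction and the call are those of most of the table. With the adjustment spread over 16996 genes, the number the deposited p-values imply, all 6 still passed, as did 70.3% of tested genes as lower in cKO. The median log2 fold change was -1.37 over the 6 genes and -1.34 over all tested genes. In bulk RNA, fewer cells with a transcript and less of it per cell cannot be told apart.

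**Figure D1:**
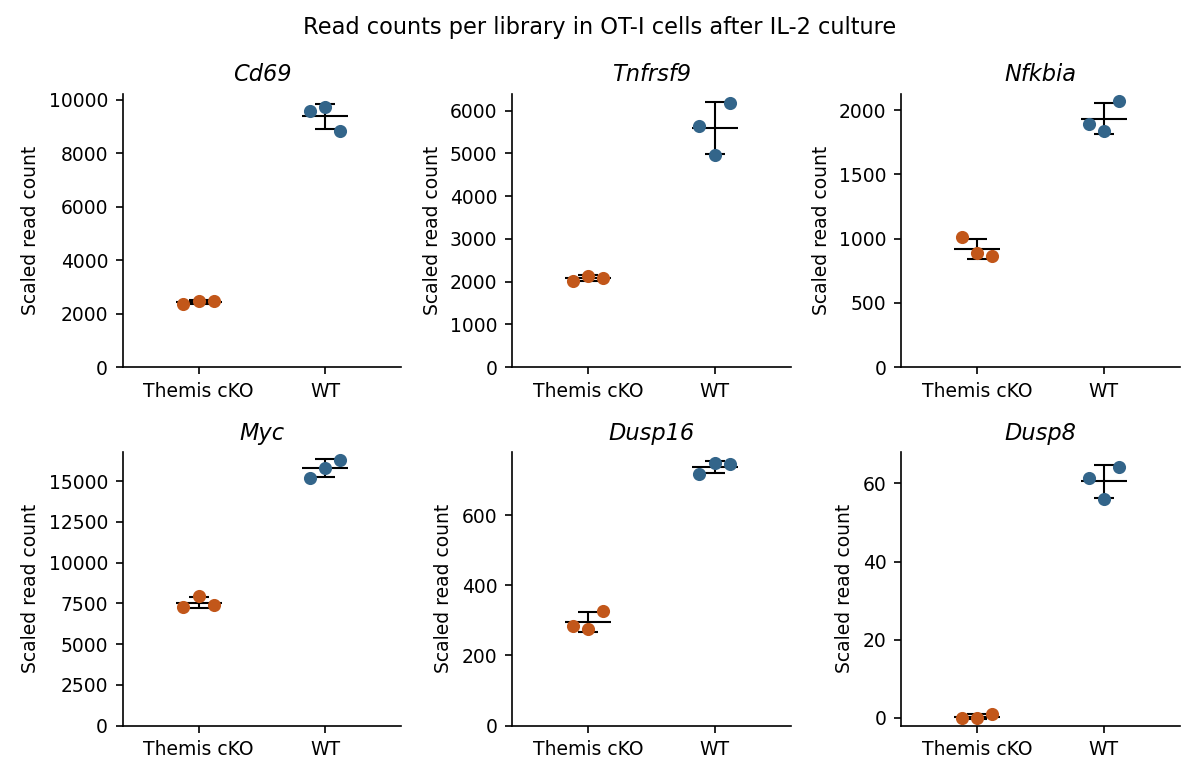
Scaled read counts (vertical axis, starting at 0 or, for Dusp8, just below it) of the 6 genes in 3 Themis cKO and 3 WT libraries; points are libraries and bars the mean ± SD. In each panel the cKO points lie below the WT points, for Dusp8 at 0 to 1.01 in cKO against 56.0 to 64.3 in WT and for Myc at 7288 to 7931 in cKO against 15203 to 16298 in WT.

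Cd69 (Gene ID 12515, chromosome 6, 129267324 to 129275375, minus strand, GRCm38.p6) encodes an early activation marker of lymphocytes that also retains cells in lymphoid tissue by opposing S1P receptor 1. It had 2334, 2522 and 2464 reads in cKO replicates 1 to 3, against 9028, 9884 and 9181 reads in WT replicates 1 to 3. The lowest WT library was 3.54-fold above the highest cKO library after scaling. The scaled mean was 2440 ± 77.2 in cKO and 9366 ± 484 in WT (SD, n = 3 each), and the log2 fold change was -1.94 ± 0.071 (standard error; edgeR quasi-likelihood test, adjusted p = 1.23e-08). Cd69 was 3.84-fold lower in cKO, yet 27.2% of tested genes had a lower fold change still.

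Tnfrsf9 (Gene ID 21942, chromosome 4, 150920155 to 150946104, plus strand) encodes the costimulatory receptor CD137 of the TNF receptor family, which activated CD8 T cells display. It had 1998, 2177 and 2074 reads in cKO libraries, against 5316.37, 5048 and 6426 reads in WT libraries. WT replicate 3 was the highest, and the coefficient of variation was 3.15% in cKO and 10.8% in WT, the highest of the 6 genes in WT. The log2 fold change was -1.42 ± 0.092 (SE; edgeR quasi-likelihood test, adjusted p = 3.33e-07). The gene lies within the GENCODE span of Camta1, which runs on the opposite strand, and the strand setting of the authors' counting is not stated in the sources used. RefSeq lists several transcripts of Tnfrsf9, and 2 start sites are held in the promoter set; the second of them is shown because it carries the searched motifs, in capitals, from 250 bases before to 50 bases after the start, at chr4:150927749-150928048 of GRCm38.p6, plus strand.
Tnfrsf9, second start: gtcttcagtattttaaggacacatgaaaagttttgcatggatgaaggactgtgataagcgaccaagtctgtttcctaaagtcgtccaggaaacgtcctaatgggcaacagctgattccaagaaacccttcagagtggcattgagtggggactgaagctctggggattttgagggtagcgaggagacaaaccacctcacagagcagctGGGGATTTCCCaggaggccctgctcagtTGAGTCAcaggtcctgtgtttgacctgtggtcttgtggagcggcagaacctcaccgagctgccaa
The capitals mark 3 matches, on either strand, to a loose form of the NF-κB site (GGG, any 5 bases, CC), and 1 match to the AP-1 motif TGANTCA at base -15. The 3 matches overlap within 1 stretch, GGGGATTTCCC, the first at base -43 from the start. The loose NF-κB pattern occurred at least 1 time in 50.8% and the AP-1 pattern in 7.81% of 32851 promoters of the same length in that set. Among the 833 promoters of table genes the shares were 63.3% and 9.36%. The first start site held none of the 6 motifs searched.

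Nfkbia (Gene ID 18035, chromosome 12, 55489409 to 55492647, minus strand) encodes the NF-κB inhibitor IκBα. It had 1004, 903 and 856 reads in cKO libraries, against 1785, 1870 and 2155 reads in WT libraries. Its groups stood closer than those of any other member, the lowest WT library being 1.82-fold above the highest cKO library. The log2 fold change was -1.07 ± 0.10 (SE; edgeR quasi-likelihood test, adjusted p = 6.24e-06). The promoter is printed because NF-κB sites there are the known basis of the feedback loop, at chr12:55492598-55492897, minus strand, with matches to the same loose NF-κB pattern in capitals.
Nfkbia: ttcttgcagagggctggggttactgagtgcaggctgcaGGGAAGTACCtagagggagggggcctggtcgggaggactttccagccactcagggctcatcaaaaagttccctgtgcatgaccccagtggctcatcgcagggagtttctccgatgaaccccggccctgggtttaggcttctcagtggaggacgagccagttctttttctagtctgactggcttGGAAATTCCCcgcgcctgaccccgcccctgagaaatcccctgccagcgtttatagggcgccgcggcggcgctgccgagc
One match lay at base -212 on the gene's strand and one at base -29 on the other strand. With the pattern present in 50.8% of promoters, and in 63.3% of the 833 promoters of table genes, these matches describe the sequence and do not set Nfkbia apart.

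Myc (Gene ID 17869, chromosome 15, 61985341 to 61990361, plus strand) had 7237, 8061 and 7332 reads in cKO libraries, against 14351, 16097 and 16976 reads in WT libraries. Only 4 of the table's genes had a higher mean count over the 6 libraries, so counting error is small here, and replicates varied by 4.55% in cKO and 3.48% in WT. The scaled mean was 7540 ± 343 in cKO and 15776 ± 549 in WT (SD, n = 3 each). The log2 fold change was -1.07 ± 0.061 (SE; edgeR quasi-likelihood test, adjusted p = 1.29e-07), which leaves 47.8% of the WT level in cKO. At 2.09-fold lower at equal depth, Myc lay near the inner edge of the table.

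The DUSP genes in the table were Dusp16 and Dusp8, both of which encode phosphatases that act mainly on the stress MAP kinases JNK and p38; other DUSP genes were not analysed here. Dusp16 (Gene ID 70686, chromosome 6, 134715468 to 134807063, minus strand) had 282, 279 and 324 reads in cKO libraries, against 676, 761 and 778 reads in WT libraries. The groups were apart, with cKO replicate 3 the highest of its genotype. Its log2 fold change was -1.32 ± 0.12 (SE; edgeR quasi-likelihood test, adjusted p = 4.65e-06), a 2.50-fold lower level in cKO. An antisense gene, Gm36328, lies within Dusp16 in GENCODE and its reads cannot be told apart without strand.

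Dusp8 (Gene ID 18218, chromosome 7, 142079487 to 142095907, minus strand) had 0, 0 and 1 read in cKO libraries, against 57.99, 57 and 67 reads in WT libraries. It was the member with the fewest reads in WT and the one nearly lost in cKO. Over each genotype the sums were 1 in cKO and 182 in WT, a WT to cKO ratio of 182 with an exact 95% Clopper-Pearson interval of 32.3 to 7228 that covers counting error only. The fitted log2 fold change of -7.05 had a standard error of 0.53 and rests on the prior count used in fitting (edgeR quasi-likelihood test, adjusted p = 9.45e-07). Only 0.756% of tested genes had a lower fitted value. Dusp8 passed the low-count filter through its WT counts alone, so its call and its place among tested genes rest on the genotype where it is high. The single cKO read was in replicate 3. The other cKO libraries, both at 0, gave a 40.4-fold lower level when set against 3 counts over those libraries. That figure leaves out the library with the read and takes the WT mean as exact, whereas the interval over all libraries reaches down to 32.3. The fitted log2 value without replicate 3 was -8.93. The long non-coding gene Gm32786 overlaps its 5′ end on the opposite strand. The Dusp8 window held in the promoter set is shown, at chr7:142095235-142095534, minus strand, for its matches to the cyclic AMP response element TGACGTCA, in capitals.
Dusp8: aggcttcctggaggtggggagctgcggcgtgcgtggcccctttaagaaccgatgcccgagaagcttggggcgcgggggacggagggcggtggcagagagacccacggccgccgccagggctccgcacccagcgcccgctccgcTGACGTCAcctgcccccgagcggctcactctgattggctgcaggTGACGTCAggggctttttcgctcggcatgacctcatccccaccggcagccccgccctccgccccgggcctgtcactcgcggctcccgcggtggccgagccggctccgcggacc
The matches lay at bases -107 and -63 from the start. This motif occurred in 1.79% of the 32851 promoters and in 2.04% of the 833 promoters of table genes. The Dusp16 window in the set, at chr6:134792579-134792878, held none of the 6 motifs. The windows of both genes lie inside the RefSeq gene span and not at its 5′ end, so starts further upstream were not searched. The searched motifs, on both strands, were the loose NF-κB pattern, TGANTCA, TGACGTCA, GCGGGGGCG for EGR factors, an SRF site and CACGTG, the E-box. The promoter set held no entry for Cd69 or Myc, so their promoters were not searched.

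Per length, Myc was the most abundant of the 6 transcripts in both genotypes and the order was the same in each. Scaled counts per kilobase of the longest GENCODE protein-coding transcript were 3225 ± 147 for Myc, 1446 ± 45.8 for Cd69, 985 ± 31.0 for Tnfrsf9, 584 ± 49.96 for Nfkbia and 57.8 ± 5.48 for Dusp16 in cKO libraries. The same level per kilobase was 6748 ± 235 for Myc, 5552 ± 287 for Cd69, 2642 ± 286 for Tnfrsf9, 1225 ± 76.5 for Nfkbia and 144 ± 3.56 for Dusp16 in WT libraries (SD, n = 3 each). Dusp8 was lowest, with up to 0.210 per kilobase in cKO libraries and 11.7 to 13.4 in WT libraries. No neighbours in this order overlapped between libraries in either genotype; the nearest were Myc, from 6503 to 6971, and Cd69, from 5225 to 5761 scaled counts per kilobase in WT libraries. The transcript lengths used in the authors' counting are not stated in the sources used, and isoform use would change these levels per length.

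**Figure D2:**
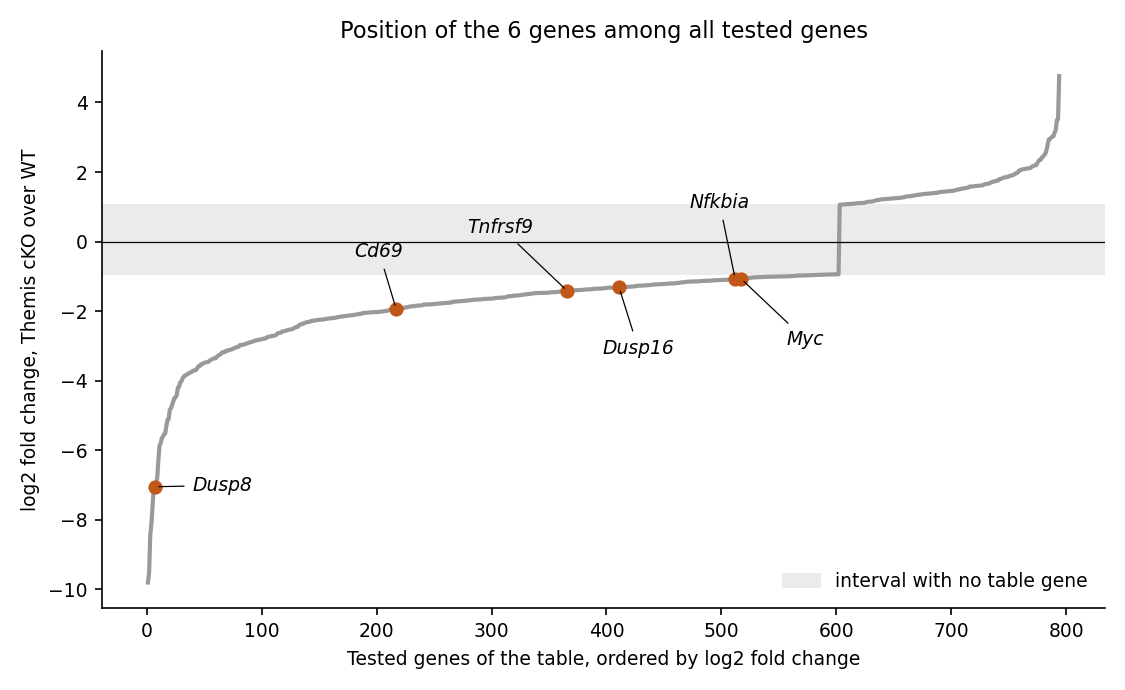
Log2 fold change of Themis cKO over WT (vertical axis) for the 794 tested genes ordered from lowest to highest (horizontal axis), with the 6 genes marked and the interval that holds no table gene in grey. Dusp8, whose fitted value depends on the prior count, is at the low end; the other members lie between -1.94 for Cd69 and -1.07 for Myc.

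The size of the fall, and for Myc and Nfkbia its sign, depends on equal depth of the genotypes. Scalings that centre the table on itself (TMM factors, DESeq2 size factors, and DESeq2's own test) move the median of all tested genes upward by 1.29 to 1.30 on the log2 scale, since most genes of the table have lower counts in cKO. Under them Cd69 remained lower at -0.63 to -0.65 and Dusp8 at -5.92 to -6.11, whereas Tnfrsf9 at -0.12 to -0.13 (adjusted p of 0.249 to 0.332 in edgeR and DESeq2) and Dusp16 at -0.013 to -0.027 (0.867 to 0.941) lost their calls. Myc stood at 0.23 to 0.24, called higher (adjusted p of 0.00795 to 0.00977 in edgeR and DESeq2), and Nfkbia at 0.22 to 0.24, not called (0.0587 to 0.0800). Such scalings presume that the typical gene of the table is unchanged. For Themis the authors' deposited log2 value was -2.25, against -2.25 at equal depth and -0.94 to -0.96 under the table-centred scalings. For each member the deposited value, below 0, lay between the equal-depth value and the table-centred values. Whether equal depth or a table-centred scaling is nearer to the true scaling was not tested. The table-centred values show the place of each gene relative to the table's median: Cd69 and Dusp8 fell further than it, and Myc less. With these scalings 26.1% to 27.3% of tested genes were called lower in cKO.

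**Figure D3:**
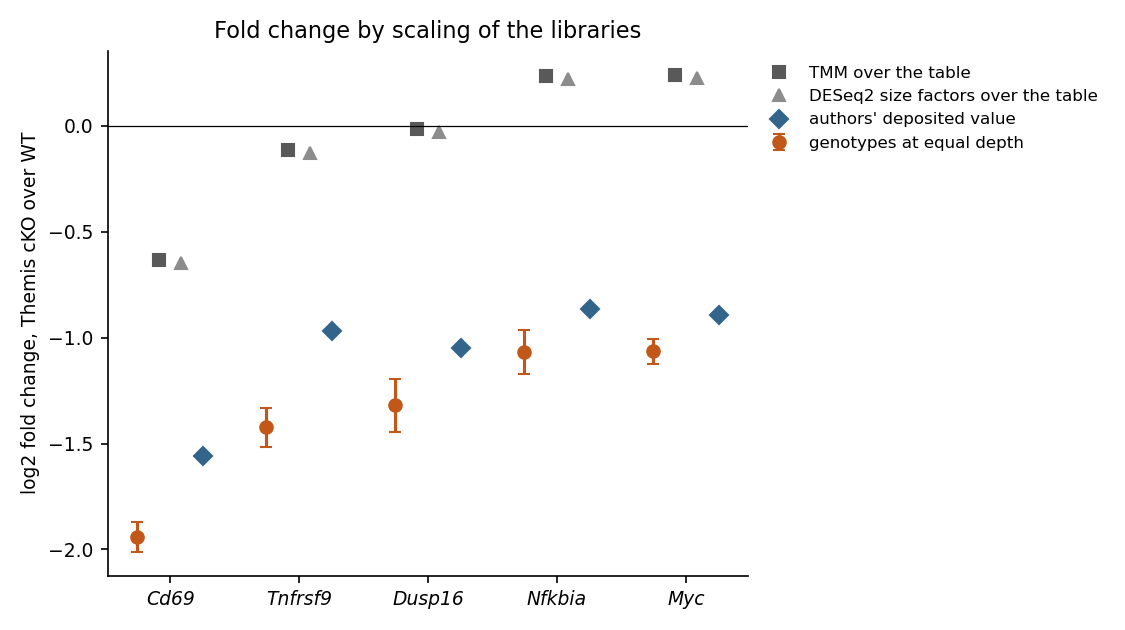
Log2 fold change of Themis cKO over WT (vertical axis) for 5 genes with reads in every library, with genotypes at equal depth (circles, bars are standard errors), with 2 scalings centred on the table, and as the authors deposited it. The circles and the deposited values lie below 0; with table-centred scalings Myc and Nfkbia lie above 0.

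Ratios between members within a library are free of any depth scaling, so they compare the members' changes with one another. For the 5 members with reads in every library there are 10 such ratios, and in 7 of them the cKO libraries did not overlap the WT libraries. The 10 ratios share these 5 genes and are not independent. The share without overlap among pairs of other table genes was not computed, so this count does not set the members apart. The log2 ratio of Cd69 to Myc was -1.63, -1.68 and -1.57 in cKO libraries, against -0.67, -0.70 and -0.89 in WT libraries, a difference of -0.87 ± 0.074 (SE, n = 3 each). Every cKO library thus had a lower Cd69 to Myc ratio than any WT library, whatever the depth. The differences were -0.87 ± 0.14 for Cd69 over Nfkbia, -0.62 ± 0.090 for Cd69 over Dusp16 and -0.52 ± 0.13 for Cd69 over Tnfrsf9. They were -0.35 ± 0.088 for Tnfrsf9 over Myc and -0.35 ± 0.10 for Tnfrsf9 over Nfkbia, also without overlap, and 0.26 ± 0.10 for Myc over Dusp16. Each of these 7 had the smallest two-sided exact permutation p that 3 against 3 libraries allow, 0.10 (0.143 after Benjamini-Hochberg adjustment over the 10 ratios), so none could pass 0.05. Nfkbia over Myc differed by -0.0052 ± 0.10 (exact permutation p = 1.00), Tnfrsf9 over Dusp16 by -0.095 ± 0.13 (exact permutation p = 0.50) and Nfkbia over Dusp16 by 0.25 ± 0.14 (exact permutation p = 0.20), and the libraries overlapped in each.

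**Figure D4:**
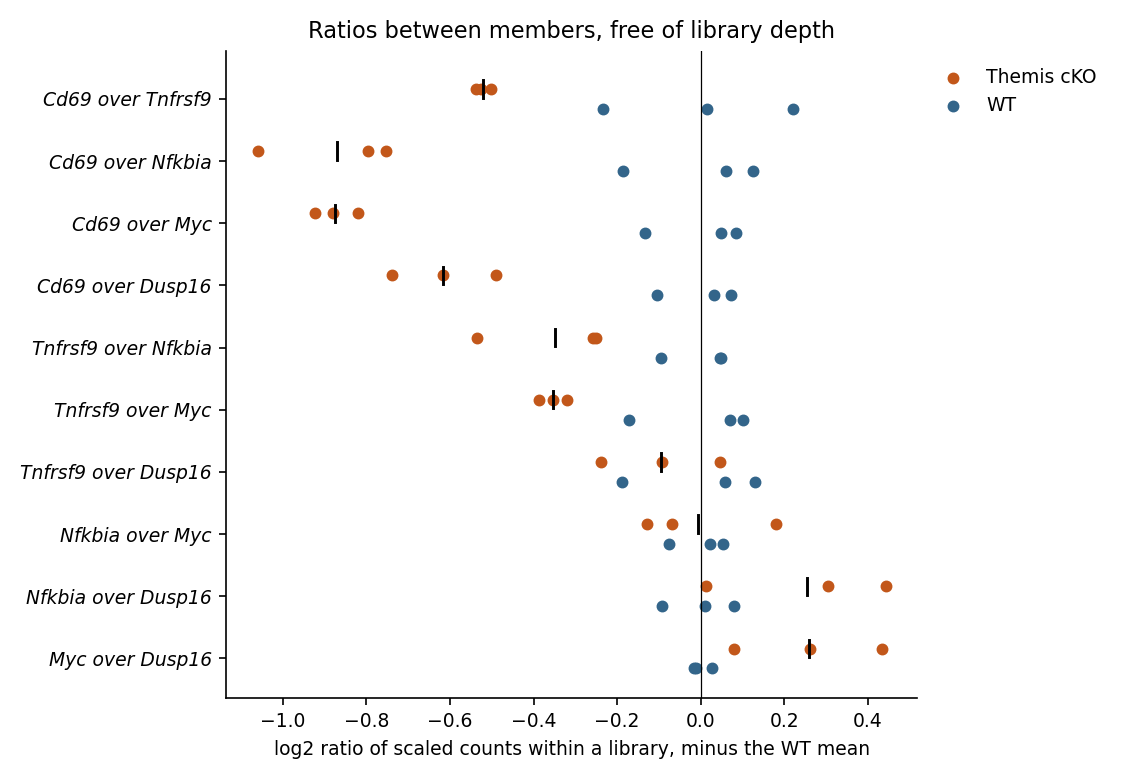
Log2 ratios of scaled counts between members within each library, minus the WT mean of that ratio (horizontal axis), for Themis cKO (upper points) and WT (lower points) libraries; the black mark is the cKO mean. The 4 ratios with Cd69 on top lie lowest in cKO, by 0.52 to 0.87, while Nfkbia over Myc lies at the WT mean.

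The authors' deposited table gives all 6 genes as lower in cKO, with log2 values of -1.56 for Cd69, -0.97 for Tnfrsf9, -0.86 for Nfkbia, -0.89 for Myc, -1.05 for Dusp16 and -6.61 for Dusp8. Its q-values were 0.0206 for Cd69, 0.206 for Tnfrsf9, 0.00494 for Nfkbia, 1.13e-05 for Myc, 0.00372 for Dusp16 and 2.2e-06 for Dusp8. Thus 5 of 6 passed 0.05 in the authors' deposited table, against 67.6% of its genes in either direction and 55.0% as lower in cKO. If those p-values came from a Wald test, the standard errors implied by the authors' deposited table are 0.50 for Cd69 and 0.49 for Tnfrsf9, against 0.17 for Myc and 0.24 for Nfkbia. In the 6 count columns Cd69 varied by 3.16% in cKO and 5.16% in WT and Myc by 4.55% in cKO and 3.48% in WT, and the standard error of Cd69 from those counts was 0.071; the cause of this difference was not tested.

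Genes of the NF-κB system were lower in cKO along with Nfkbia, but the 5 besides it in the table are a part of the 24 listed. All 6 listed genes in the table passed as lower (edgeR quasi-likelihood test, against 75.8% of all tested genes). Their median log2 fold change was -1.30, against -1.34 over all tested genes. Nfkbia, Nfkb2 and Birc3 turned sign under the table-centred scalings, and Birc3 was called higher at 0.24 to 0.25 (adjusted p of 0.0109 to 0.0433 in edgeR and DESeq2). Nfkb2, a precursor of the NF-κB subunit p52, had 962 ± 64.2 scaled counts in cKO and 2317 ± 70.8 in WT. Birc3, a ubiquitin ligase of TNF receptor signalling, had 927 ± 11.9 in cKO and 1927 ± 84.9 in WT. Relb, an NF-κB subunit, had 504 ± 59.4 in cKO and 1291 ± 74.5 in WT (log2 fold change -1.36). Tnfaip3, the ubiquitin-editing inhibitor A20, had 499 ± 29.7 in cKO and 1257 ± 36.3 in WT (log2 fold change -1.33). Tnip3, a partner of A20, was the lowest relative to WT, with 3, 5 and 1 reads in cKO libraries, against 26, 35 and 41 reads in WT libraries. Relb and Tnfaip3 were no longer called with the table-centred scalings (adjusted p between 0.670 and 0.861 in edgeR and DESeq2, at most 0.000170 under the other alternatives).

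Of the 20 listed activation markers and costimulators 6 were in the table, 5 of them lower and 1 higher in cKO (edgeR quasi-likelihood test, adjusted p under 0.05), where 75.8% of all tested genes were lower and 24.2% higher. Besides Cd69 and Tnfrsf9, these included Slc3a2, a heavy chain of amino acid transporters, with 5497 ± 545 scaled counts in cKO and 10620 ± 874 in WT. Under the table-centred scalings Slc3a2 turned sign and was called higher, at 0.34 to 0.36 (adjusted p of 0.00419 to 0.00631 in edgeR and DESeq2). Tnfsf9, the ligand of the Tnfrsf9 receptor, had 24, 21 and 28 reads in cKO libraries, against 77, 94 and 65 reads in WT libraries, a log2 fold change of -1.69 (edgeR, adjusted p = 1.07e-04; 0.206 to 0.304 under the table-centred scalings, at most 0.00228 under the others). Receptor and ligand were thus both lower in cKO with genotypes at equal depth. Cd83, an activation marker, had about 10 reads in each cKO library (10, 9 and 10.98), against 20, 31 and 34 reads in WT libraries (adjusted p of 0.615 to 0.745 under the table-centred scalings, at most 0.0232 under the others). Tnfrsf25, another TNF receptor family member, was the one that was higher, with 32, 85 and 60 reads in cKO libraries, against 29, 28 and 18 reads in WT libraries. Its log2 fold change of 1.23 (edgeR, adjusted p = 0.00909) was no longer called when the adjustment covered 16996 genes (adjusted p = 0.195, 2.52e-08 to 0.195 over all alternatives).

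Of 20 listed MAP kinase phosphatases and ERK feedback genes 3 were in the table, Dusp16, Dusp8 and Spry1, and all 3 were lower (edgeR, adjusted p under 0.05), as were 75.8% of all tested genes. Under the table-centred scalings 2 of the 3 were called lower, Dusp8 and Spry1, beside 26.1% to 27.3% of all tested genes. Spry1, an inhibitor of RAS to ERK signalling, had 27, 41 and 30 reads in cKO libraries, against 110, 176 and 115 reads in WT libraries, a log2 fold change of -2.03 (edgeR, adjusted p = 3.59e-05). Spry1 was also lower under the table-centred scalings, at -0.72 to -0.74. Of 21 kinases of the MAP kinase cascades only Mapk12, a p38 family kinase, was in the table, with 18, 15 and 19 reads in cKO libraries, against 55, 52 and 59 reads in WT libraries; it was no longer called with the table-centred scalings (adjusted p between 0.214 and 0.355 in edgeR and DESeq2, at most 0.00220 under the others). The other 20 kinases were not analysed here.

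Of 14 genes of the Myc network 4 were in the table. Besides Myc, these were Mxd1 and Mxi1, which encode partners of MAX that oppose MYC at its target sites, and Mycl, a Myc family member. Mxi1 had 161, 140 and 177 reads in cKO libraries, against 611, 675 and 698 reads in WT libraries, a log2 fold change of -2.05 ± 0.14 (SE; edgeR, adjusted p = 4.26e-07), and stayed lower under the table-centred scalings at -0.74 to -0.76. Mxd1 had 481 ± 15.4 scaled counts in cKO and 1273 ± 157 in WT, a log2 fold change of -1.40; it was no longer called with the table-centred scalings (adjusted p between 0.461 and 0.529 in edgeR and DESeq2, at most 1.45e-04 under the others). Mycl was left out of the main test by the low-count filter, with 2 reads over the cKO libraries and 39 over the WT libraries. Its WT to cKO ratio was 19.5 (exact 95% Clopper-Pearson interval 5.05 to 167, counting error only). Without the filter 4 genes of the Myc network were called lower in edgeR, against 3 with it. Genes for Myc and for antagonists of MYC were thus both among the genes lower in cKO at equal depth, as were 75.8% of all tested genes. Myc itself turned sign under the table-centred scalings. None of 25 listed Myc target genes was in the table, so their levels were not analysed here.

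**Figure D5:**
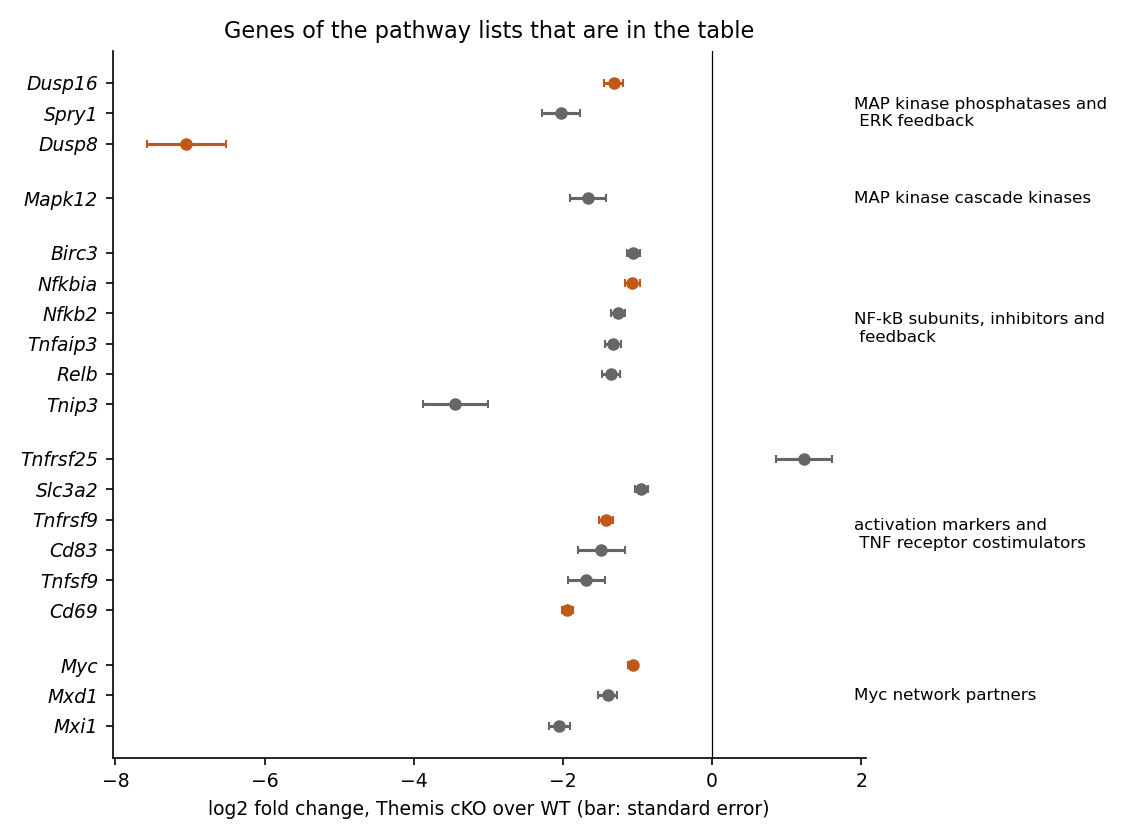
Log2 fold change of Themis cKO over WT with its standard error (horizontal axis) for tested genes of the pathway lists, at equal depth of the genotypes, with the 6 members in orange. Tnfrsf25 at 1.23 is the one gene to the right of 0, and the fitted value of Dusp8 depends on the prior count.

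The tested genes whose profiles over the 6 libraries were most like those of the members were found by the root-mean-square difference of log2(scaled count + 1) after centring each gene. Predicted genes and pseudogenes, judged by symbol, were left out. Mxd1 was nearest to Tnfrsf9 with a difference of 0.0213, followed by Stx11 at 0.0307. Icam1 was nearest to Nfkbia at 0.0296, Birc3 to Myc at 0.0472, Slfn8 to Cd69 at 0.0475 and Mfhas1 to Dusp16 at 0.0594. After Slfn8, the genes nearest to Cd69 were Ifi208 at 0.0634 and Daxx at 0.0641. Malt1, a protease that links the TCR to NF-κB, was second to Dusp16 at 0.0647, with a log2 fold change of -1.33 against -1.32 for Dusp16. A small difference of this kind largely repeats a similar fold change between the genotypes, and shared regulation was not tested. Dusp8 had no close neighbour among the genes kept, the nearest being Ifnb1 at 0.354, which was at 0 in all cKO libraries. Ifna5 at 0.412 and Rsad2 at 0.419 followed.

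Other early genes of TCR signalling are given for scale. At equal depth the log2 fold changes were -1.52 for Egr1, -2.97 for Egr2 and -2.54 for Egr3, transcription factors, and -2.25 for Nr4a1, -3.48 for Nr4a2 and -3.05 for Nr4a3, orphan nuclear receptors; Cd69 at -1.94 lay between Egr1 and Nr4a1. Whether the members differ from these genes was not tested.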

How the data were processed

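RNA was taken from IL-2 cultures of OT-I cells with a column kit and sequenced on a DNBSEQ-G400, per the labels' protocols. The submitters' processing notes name the genome GRCm38.p6, RSEM 1.2.12, HISAT2 2.0.4, DESeq2 1.4.5 and Bowtie2 2.2.5, with no role for each. The authors deposited 1 table of 854 genes with an estimated count per library, 66.1% of values whole, and, per the file headers, the authors' log2 fold change, p-value and q-value; the rule behind the choice of genes is not stated in the sources. Depths are unknown.

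Counts were rounded and fitted with edgeR 4.0.16 (R 4.3.3; quasi-likelihood test, genotype as the term) on 794 genes passing the filter at a smallest count of 10, with Benjamini-Hochberg adjustment over all of them at 0.05. Libraries were scaled by median-of-ratios factors within a genotype (0.944 to 1.04; genes above 10 counts), with genotypes at equal depth. The factor that centres the empty fold interval on 0 is 1.04. Ranks computed from the deposited p-values and q-values point to 16996 genes tested (whole ranks within 0.02 for 71.0% of 427 genes). The standard error is the fold change divided by the root of its F. Alternatives covered test, scaling, filter, thresholds, a replicate block and left-out libraries, with DESeq2 1.42.0 and limma 3.58.1.

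Members and lists were chosen with earlier results of these data known, as were the motifs; list genes in the table are named, up to 5 a list by mean count, and for likeness the 3 nearest genes were found. Coordinates and promoters are from RefSeq on GRCm38.p6 (842 of 854 gene IDs matched), and lengths and overlaps from GENCODE vM21. Tables and figures used matplotlib 3.10.9, scipy 1.17.1, numpy 2.4.6 and pandas 2.3.3 in Python 3.11.15.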

Additional observations from a re-analysis of the deposited data

How the results depend on the processing

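Each of the 6 genes kept its direction and its call without scaling, with the empty fold interval centred on 0, without a low-count filter, at a threshold of 0.01, with the adjustment spread over 16996 genes, in limma-voom, with the replicate block and without any 1 library: the log2 fold changes were -2.0004 to -1.91 for Cd69, -1.50 to -1.35 for Tnfrsf9, -1.14 to -1.02 for Nfkbia, -1.12 to -1.04 for Myc, -1.40 to -1.27 for Dusp16 and -8.93 to -6.40 for Dusp8. With TMM over the table, DESeq2 size factors in edgeR and the DESeq2 test, in that order, Tnfrsf9 was no longer called at -0.12, -0.13 and -0.13, Dusp16 at -0.013, -0.027 and -0.027, Nfkbia turned to 0.24, 0.22 and 0.22, and Myc to 0.24, 0.23 and 0.23. Called genes numbered 438, 438 and 431, of which 214, 217 and 207 were lower and 224, 221 and 224 higher, against 794, 602 and 192 at equal depth. Dusp8 stood at -5.92, -5.93 and -6.11, still called. Under each of them 0 MAP kinase cascade genes were called lower, against 1; 1 NF-κB gene was called lower, against 6, and 1 higher, against 0; 1 activation marker was called lower, against 5, and 2 higher, against 1; and 1 Myc network gene was called lower, against 3, and 1 higher, against 0. Adjusted over 16996 genes, 0 activation markers were higher. The ratio of Nfkbia to Myc ranged from -0.098 to 0.056 when single libraries were left out, either side of 0, and the other 9 ratios kept their sign.

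The titles number the libraries 1 to 3 in both genotypes, but same-numbered libraries did not deviate together (correlations of -0.0591, -0.0564 and -0.156 over 794 genes) and 0 of 6 libraries correlated best with their own number, so the numbers were not taken as pairs. With the replicate block 793 genes were called, 602 lower and 191 higher; Cd69 stood at -1.94 and Myc at -1.07, no member lost its call, and the ratio of Cd69 to Myc still differed by -0.87 (exact sign-flip permutation p = 0.25, the smallest that 3 pairs allow). Unknown depth limits all fold changes between genotypes, and the 1 read of Dusp8 in cKO limits its ratio.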
